A study of Mus musculus with 18 samples.

Results

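A set of 10 genes that the transcription factor p53 is known to switch on were followed over 18 arrays of mouse lung airway cells, and 7 of the 10 had a probe set that could be used. They are Cdkn1a, Mdm2, Ccng1, Trp53inp1, Phlda3, Bbc3, Bax, Gdf15, Plk2 and Btg2. A gene was taken when a probe set of the array carried its symbol and no other in the platform annotation, which left Mdm2, Ccng1, Trp53inp1, Phlda3, Bbc3, Plk2 and Btg2 among 19938 genes of this kind, each with 1 probe set. The 1 probe set of Cdkn1a carries several symbols and was not used here, and Bax and Gdf15 were not analysed here. The gene of p53 itself, Trp53, was not analysed here either. All 10 were chosen by name, with earlier results of these arrays known, and no filter on low values was applied.

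The arrays measured total RNA of terminal bronchiolar epithelial cells, the lining cells of the smallest conducting airways, from mouse lung. Naphthalene injures this lining because club cells convert it to a reactive product. The mice were a mix of the strains FVB/N and C57BL/6, with the genotype control or Cebpa d/d. Cebpa is the gene of C/EBP alpha, a transcription factor of lung epithelial maturation. Both genotypes were taken at 0, 3 and 72 hr of naphthalene injury, so all 6 groups carry that label, and each group had 3 arrays. The age of the mice, the construct that deletes Cebpa, the cells in which it acts and the alleles of the control mice are not given in the sources used here. The labels do not say that the arrays of a group came from separate mice, so a p-value measures the spread between arrays, which may be technical in part. In bulk RNA of this kind, fewer cells of a type and less RNA per cell cannot be told apart.

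In unstressed cells p53 is kept scarce by Mdm2, a ubiquitin ligase that marks it for destruction. DNA damage and other stress release p53 from that control, and it then activates genes that halt the cell cycle (Cdkn1a, Btg2), promote cell death (Bax, Bbc3), limit survival signalling (Phlda3) or restrain p53 itself (Mdm2). Mdm2 is thus both a target and a brake, a feedback loop that is a standard readout of p53 activity. Much of the control of p53 is on the protein, which these arrays do not measure. Several of the 10 genes, Btg2 and Plk2 among them, also respond to growth factor and stress signals that do not need p53.

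Stretches of DNA before the start sites show where letters that match known response elements lie in 4 of the measured genes. RefSeq sequences around the gene start, in assembly GRCm38.p6, were at hand for 6 of the 7 genes, without Trp53inp1, and each window runs from 250 bases before to 50 bases after a start. The 4 sequences are the 250 bases before the start, 5′ to 3′ on the strand of the gene. Capitals mark the best p53 site match in Ccng1, a p53 half-site match in Mdm2, and the cAMP response element TGACGTCA, which ATF and CREB family factors bind, in Btg2 and Plk2. Ccng1 lies on the minus strand at chr11:40755287-40755536, Mdm2 on the minus strand at chr10:117710759-117711008, Btg2 on the minus strand at chr1:134079156-134079405, and Plk2 on the plus strand at chr13:110394794-110395043.
Ccng1: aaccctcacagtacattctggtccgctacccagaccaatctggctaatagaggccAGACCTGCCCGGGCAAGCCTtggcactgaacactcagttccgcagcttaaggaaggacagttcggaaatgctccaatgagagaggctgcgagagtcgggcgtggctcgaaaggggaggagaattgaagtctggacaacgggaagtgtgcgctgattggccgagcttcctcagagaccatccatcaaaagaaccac
Mdm2: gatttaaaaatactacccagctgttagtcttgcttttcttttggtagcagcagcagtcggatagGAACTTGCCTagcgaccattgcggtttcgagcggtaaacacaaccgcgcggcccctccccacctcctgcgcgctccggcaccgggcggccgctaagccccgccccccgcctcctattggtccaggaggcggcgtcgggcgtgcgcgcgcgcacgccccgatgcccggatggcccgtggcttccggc
Btg2: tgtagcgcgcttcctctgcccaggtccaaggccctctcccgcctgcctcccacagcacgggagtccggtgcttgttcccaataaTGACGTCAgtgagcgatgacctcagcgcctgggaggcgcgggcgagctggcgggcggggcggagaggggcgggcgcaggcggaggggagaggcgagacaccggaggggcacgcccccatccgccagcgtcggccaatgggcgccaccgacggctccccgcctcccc
Plk2: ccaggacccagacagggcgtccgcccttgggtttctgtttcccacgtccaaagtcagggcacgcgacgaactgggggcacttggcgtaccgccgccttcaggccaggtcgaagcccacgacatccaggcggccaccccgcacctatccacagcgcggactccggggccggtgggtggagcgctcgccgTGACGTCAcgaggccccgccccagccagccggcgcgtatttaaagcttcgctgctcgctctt

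The p53 site is a pair of half-sites of 10 bases. In Ccng1 a full site of 20 bases with 1 mismatch to the consensus and no bases between its parts starts 195 bases before the gene start, and the Ccng1 half-site match lies inside it. Mdm2 holds a half-site match 186 bases before the start shown here; Mdm2 has a second, p53-responsive promoter inside the gene, which this window does not cover. The element TGACGTCA starts 166 bases before the start of Btg2 and 62 bases before that of Plk2. Both strands were searched. Of 32817 windows of the same length, 4.09% hold a full p53 site with at most 2 mismatches and at most 13 bases between the half-sites, 8.36% hold a half-site and 1.79% hold TGACGTCA. Among the 6 genes with a window, 1 holds a full site, 2 a half-site and 2 the element. A match is a description of these letters and not a measured binding site.

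A gene is said to have risen or fallen where the adjusted p was under 0.05, from limma with Benjamini-Hochberg adjustment over the 19938 genes within a comparison. Values are log2 levels as deposited, so a difference of 1 is a change by 1 power of 2, and each difference, of 3 arrays against 3, is given with its standard error (SE). The level of Cebpa was checked first. It was 9.69 to 10.52 in 8 of the 9 control arrays and 7.83 to 9.07 in the 9 Cebpa d/d arrays, but the array labelled control 0 hr replicate 1 read 7.89, as low as Cebpa d/d arrays and against its label. The array of Cebpa d/d 72 hr replicate 1 had the lowest macrophage, smooth muscle, fibroblast and cell cycle levels of its group and the highest club cell level. It is the other array treated with caution. Calls of the 7 genes that change when either or both are left out are given both ways. Transcripts of Xist and Eif2s3y put all 6 arrays at 72 hr in females, against 1 of 3 arrays in each group at 0 and 3 hr, so time and sex moved together in part. The 8 club cell markers averaged, in control arrays at 0, 3 and 72 hr, 12.14 to 12.57, then 11.90 to 12.28, then 11.59 to 11.70. The Cebpa d/d arrays had 12.44 to 12.51, then 11.92 to 12.47, then 11.65 to 12.25. Cardiac muscle markers averaged 10.46 to 11.36 in the Cebpa d/d arrays at 0 hr, and 7.82 to 9.68 in the remaining 15 arrays.

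**Figure D1:**
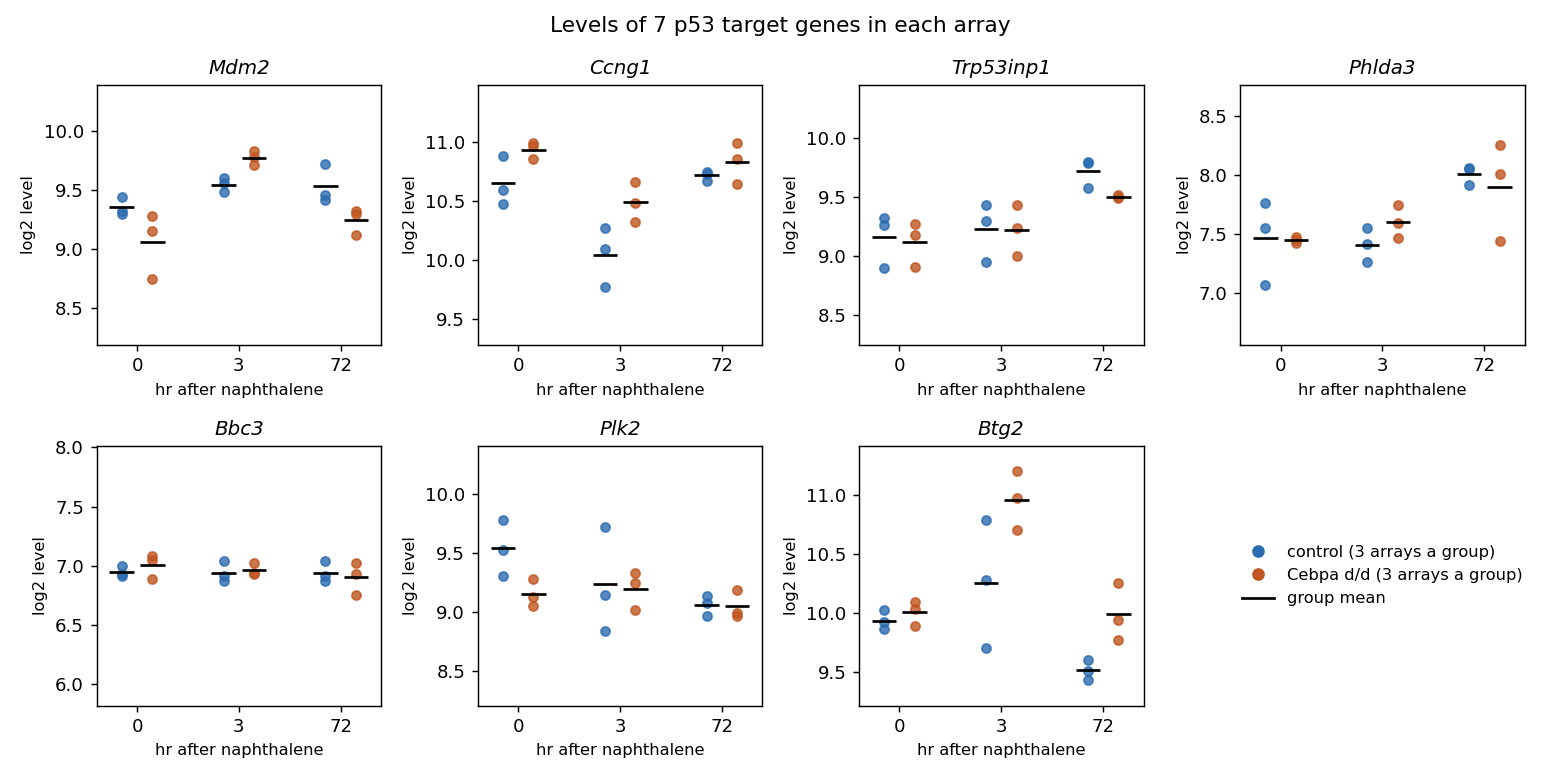
Log2 level of each of the 7 measured p53 target genes (vertical axes, of 1 common height and placed per gene) at 0, 3 and 72 hr of naphthalene injury (horizontal axis); points are arrays, bars are means of 3 arrays, blue is control and orange Cebpa d/d. Mdm2 and Btg2 are highest in Cebpa d/d at 3 hr, Ccng1 is lowest at 3 hr in control, and Trp53inp1 is highest at 72 hr in control.

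At 3 hr the 7 genes did not move as a group. In Cebpa d/d cells Mdm2 and Btg2 rose and none fell, and in control cells Ccng1 fell and none rose. The other genes did not pass the test in either genotype. In Cebpa d/d cells 2 of 7 genes had risen and 0 had fallen, where 2.66% of all genes had risen, 1.72% had fallen and 4.38% had changed in either direction. In control cells 0 of 7 had risen and 1 had fallen, where 1.88% of all genes had risen, 1.62% had fallen and 3.50% had changed in either direction. The median change of the 7 genes was 0.10 in Cebpa d/d, beside -0.02 over all genes, and -0.01 in control, beside 0.03.

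Mdm2 had levels of 9.15, 8.75 and 9.28 in the Cebpa d/d arrays at 0 hr and of 9.71, 9.83 and 9.78 at 3 hr. All 3 injured arrays lay above all 3 arrays at 0 hr. The rise was 0.71 ± 0.12 (SE), or 1.64-fold, with an adjusted p of 0.00197. In control, Mdm2 read 9.30, 9.32 and 9.44 at 0 hr and 9.48, 9.56 and 9.60 at 3 hr. Those groups do not overlap either, in the same direction, but the difference of 0.19 had an adjusted p of 0.360 and did not pass. The interaction, which subtracts the control change from the Cebpa d/d change, was 0.52 ± 0.17 for Mdm2 with an adjusted p of 0.595, so the larger change in Cebpa d/d was not shown to differ from that in control. All 8 cardiac muscle markers fell from 0 to 3 hr in Cebpa d/d, and their part in the Mdm2 and Btg2 results at 3 hr was not tested.

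Btg2, an antiproliferative gene that is induced fast by many stimuli, read 10.09, 9.89 and 10.03 in Cebpa d/d at 0 hr and 10.97, 10.70 and 11.20 at 3 hr. The groups do not overlap, and the rise of 0.96 ± 0.20, or 1.94-fold, had an adjusted p of 0.0103. In control the levels were 9.92, 9.86 and 10.02 at 0 hr and 9.70, 10.79 and 10.28 at 3 hr. The control arrays at 3 hr spread over more than 1 log2 unit, with replicate 1 below and replicates 2 and 3 above the 0 hr arrays, and the difference of 0.32 did not pass (adjusted p = 0.360). Without control 3 hr replicate 1 it was 0.60 with an adjusted p of 0.0400. By Xist, replicate 2 was the only female array of control at 3 hr. Its mean of 6 neutrophil markers was 6.40, against 8.29 and 8.66 in replicates 1 and 3. The part of sex or neutrophil markers in the spread of Btg2 or Plk2 in this group was not tested. The interaction for Btg2 was 0.63 ± 0.28 (adjusted p = 0.716). The call in Cebpa d/d was lost without Cebpa d/d 0 hr replicate 2 (0.90, adjusted p = 0.0511) and without Cebpa d/d 3 hr replicate 3 (0.84, adjusted p = 0.0660).

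Ccng1 encodes cyclin G1, which recruits a phosphatase that acts on Mdm2. In control its levels were 10.88, 10.47 and 10.59 at 0 hr and 10.27, 10.09 and 9.77 at 3 hr. The fall of 0.60 ± 0.13, or 1.52-fold, had an adjusted p of 0.0219, and the groups do not overlap. The Cebpa d/d levels were 10.99, 10.96 and 10.85 at 0 hr and 10.32, 10.66 and 10.48 at 3 hr. All arrays at 3 hr were again lower, by a difference of -0.45 ± 0.13 that had an adjusted p of 0.0705 and did not pass with all arrays. It passed when the array labelled control 0 hr replicate 1 was left out (adjusted p = 0.0473), when control 3 hr replicate 3 (0.0411) or Cebpa d/d 3 hr replicate 2 (0.0484) was, when both arrays treated with caution were (0.0380), and with array weights (0.0190). The call in control rests on single arrays. The difference was -0.48 when the array labelled control 0 hr replicate 1 was left out (adjusted p = 0.0922). It was also -0.48 without both arrays treated with caution (adjusted p = 0.0771). Without control 3 hr replicate 3 it was -0.47 (adjusted p = 0.109). Without control 0 hr replicate 3 the adjusted p was 0.0543, and without control 3 hr replicate 2 it was 0.0538.

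The remaining 4 genes gave no call at 3 hr. Differences from 0 hr lay between -0.30 for Plk2 in control and 0.15 for Phlda3 in Cebpa d/d, with adjusted p values of 0.316 and 0.750. Bbc3, which encodes the cell death activator PUMA, read 6.91, 6.93 and 7.0 in control at 0 hr and 7.04, 6.91 and 6.87 at 3 hr, and 7.05, 7.08 and 6.89 in Cebpa d/d at 0 hr and 6.94, 6.93 and 7.02 at 3 hr. Its arrays overlap at every time in both genotypes, and the 95% interval of the difference at 3 hr was -0.19 to 0.18 in control and -0.23 to 0.15 in Cebpa d/d. The mean of Bbc3 over all arrays was 6.95, beside a median of 6.84 for the mean levels of all genes. How well its 1 probe set follows the transcript was not tested. Plk2, a polo-like kinase, read 9.53, 9.31 and 9.78 in control at 0 hr, 8.84, 9.72 and 9.15 at 3 hr and 8.97, 9.14 and 9.08 at 72 hr. The Cebpa d/d arrays read 9.13, 9.28 and 9.05 at 0 hr, 9.25, 9.02 and 9.33 at 3 hr and 9.19, 8.99 and 8.97 at 72 hr. The control arrays at 3 hr overlap with both other control groups.

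**Figure D2:**
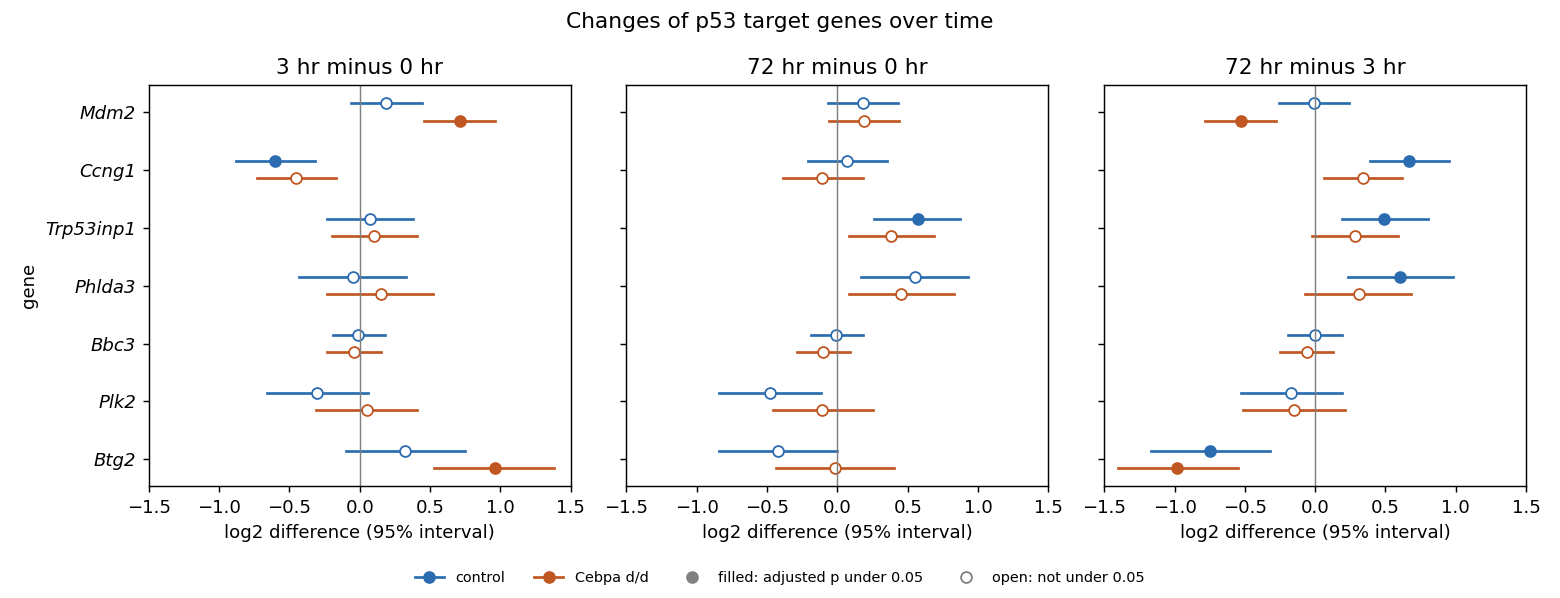
Log2 difference of each of the 7 genes (horizontal axis, with 95% interval from the model) for 3 hr minus 0 hr, 72 hr minus 0 hr and 72 hr minus 3 hr; blue is control, orange is Cebpa d/d, and filled points have an adjusted p under 0.05. Mdm2 and Btg2 rise at 3 hr and fall by 72 hr in Cebpa d/d, and Ccng1 falls at 3 hr and rises by 72 hr in control.

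At 72 hr, Trp53inp1 was above its starting level in control, and the other 6 genes did not pass the test. That is 1 of 7 genes that rose, where 4.95% of all genes had risen, 2.20% had fallen and 7.15% had changed in either direction. In Cebpa d/d 0 of 7 genes passed by limma, where 3.39% of all genes had risen, 1.42% had fallen and 4.80% had changed. There 2 of 7 had an unadjusted p under 0.05, beside 17.5% of all genes. The median of the 7 genes was 0.07 in control and -0.02 in Cebpa d/d, beside -0.02 over all genes in both.

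Trp53inp1 encodes a stress protein that helps activate p53 and takes part in autophagy. In control it read 9.26, 8.90 and 9.32 at 0 hr, 9.43, 9.30 and 8.95 at 3 hr and 9.58, 9.79 and 9.80 at 72 hr. All 3 arrays at 72 hr exceeded all 6 earlier control arrays. The rise from 0 hr was 0.57 ± 0.14, or 1.48-fold (adjusted p = 0.0255). The Cebpa d/d levels of Trp53inp1 were 9.18, 8.91 and 9.27 at 0 hr, 9.24, 9.0 and 9.43 at 3 hr and 9.52, 9.49 and 9.50 at 72 hr. The arrays at 72 hr were again the highest, by a difference of 0.38 ± 0.14 from 0 hr that did not pass (adjusted p = 0.158). All arrays at 72 hr came from females, and with sex in the model the control difference was 0.55 with an adjusted p of 0.0813. The call was also lost without control 0 hr replicate 2 (0.44, adjusted p = 0.119), control 72 hr replicate 2 (0.53, adjusted p = 0.104) or control 72 hr replicate 3 (0.53, adjusted p = 0.0913).

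Phlda3, a pleckstrin homology protein that blocks the membrane recruitment of the survival kinase AKT, read 7.76, 7.07 and 7.55 in control at 0 hr, 7.41, 7.26 and 7.55 at 3 hr and 7.91, 8.06 and 8.05 at 72 hr. The arrays at 72 hr were above all earlier control arrays, but the difference from 0 hr of 0.55 ± 0.18 had an adjusted p of 0.0734. It was 0.70 when the array labelled control 0 hr replicate 1 was left out (adjusted p = 0.0336). The adjusted p was 0.0237 when Cebpa d/d 72 hr replicate 1, which enters only the spread here, was left out. Without both of these arrays the difference was 0.70 (adjusted p = 0.00508). The Cebpa d/d levels of Phlda3 were 7.45, 7.42 and 7.47 at 0 hr, 7.74, 7.59 and 7.46 at 3 hr and 7.44, 8.25 and 8.01 at 72 hr. Replicate 1 at 72 hr stayed at the 0 hr level while the other two arrays were higher. The difference was 0.45 ± 0.18 with all arrays (adjusted p = 0.176) and 0.68 without that replicate (adjusted p = 0.0155). Without both arrays treated with caution it was also 0.68 (adjusted p = 0.00589). The same array had a macrophage marker mean of 7.17, against 7.85 and 7.77 in replicates 2 and 3. This array was also the lowest of its group for smooth muscle, fibroblast, alveolar type 1, alveolar type 2, basal and neutrophil markers. For smooth muscle the mean was 9.89, against 10.78 and 10.28. The array was the highest for club cell (12.25, against 11.65 and 11.86), endothelial and lymphocyte markers. In control the mean of 7 measured macrophage markers was 7.04 to 7.21 at 0 hr and 7.83 to 8.18 at 72 hr. From 0 to 72 hr 3 of the 7 rose in control and 0 in Cebpa d/d, beside 4.95% and 3.39% of all genes. The part of macrophage or other markers in the Phlda3 values was not tested.

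The remaining genes did not pass at 72 hr in either genotype, and Btg2 and Plk2 in control lay below all their 0 hr arrays. Mdm2 read 9.42, 9.72 and 9.46 in control and 9.12, 9.32 and 9.30 in Cebpa d/d at 72 hr, with differences from 0 hr of 0.18 and 0.19 (adjusted p = 0.425 and 0.464). Ccng1 read 10.67, 10.73 and 10.74 in control and 10.64, 10.99 and 10.85 in Cebpa d/d, and both groups overlap with their 0 hr arrays. Bbc3 read 7.04, 6.91 and 6.87 in control and 7.02, 6.75 and 6.93 in Cebpa d/d. Btg2 at 72 hr read 9.43, 9.60 and 9.51 in control, below all 0 hr arrays, and 10.25, 9.94 and 9.77 in Cebpa d/d, which overlap with them. In control neither Btg2 (-0.42 ± 0.20, adjusted p = 0.237) nor Plk2 (-0.48 ± 0.17, adjusted p = 0.104) passed, although the groups do not overlap. Without control 3 hr replicate 2, an array that enters only the estimate of spread here, the adjusted p of Plk2 was 0.0324. With array weights Plk2 passed at -0.60 (adjusted p = 0.0113), and Btg2 passed with only the 2 groups in the fit (adjusted p = 0.0395).

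Between 3 and 72 hr 4 of the 7 genes moved in control and 2 in Cebpa d/d. In control Ccng1, Trp53inp1 and Phlda3 rose and Btg2 fell, which is 4 of 7 where 19.7% of all genes had changed, 11.2% upward and 8.57% downward. In Cebpa d/d Mdm2 and Btg2 fell, 2 of 7 where 8.55% of all genes had changed, 4.88% upward and 3.67% downward. This comparison shares its 3 hr arrays with the 3 hr result, so a return after a change at 3 hr is not independent of it. Ccng1 rose in control by 0.67 ± 0.13, or 1.59-fold (adjusted p = 0.00248), and the difference in Cebpa d/d was 0.34 (adjusted p = 0.135, and 0.0473 without both arrays treated with caution). Btg2 fell by 0.75 ± 0.20 in control (adjusted p = 0.0158) and by 0.98 ± 0.20 in Cebpa d/d (adjusted p = 0.00633). Mdm2 fell in Cebpa d/d by 0.53 ± 0.12 (adjusted p = 0.0112), and its difference in control was -0.01 (adjusted p = 0.951). 

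Of these calls the falls of Mdm2 and Btg2 in Cebpa d/d and the rise of Ccng1 in control held without each array in turn. The rise of Trp53inp1 (0.49 ± 0.14, adjusted p = 0.0248) and that of Phlda3 (0.60 ± 0.18, adjusted p = 0.0263) were lost with sex in the model, at adjusted p values of 0.0733 and 0.0620. Leaving out 1 array ended the call of Trp53inp1 for control 3 hr replicate 3 (0.131) and control 72 hr replicates 2 (0.0817) and 3 (0.0858). For Phlda3 it was control 3 hr replicate 2 (0.0795) and control 72 hr replicates 2 (0.0792) and 3 (0.0780). For Btg2 in control it was control 3 hr replicate 2, which left a difference of -0.48 (0.0667), and replicate 3 (0.0501). The values in parentheses are adjusted p values. Phlda3 in Cebpa d/d did not pass with all arrays (adjusted p = 0.363). It was higher at 72 hr by 0.54 when Cebpa d/d 72 hr replicate 1 was left out (adjusted p = 0.0452). Without both arrays treated with caution it was also higher by 0.54 (adjusted p = 0.0212).

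Markers of several cell types moved in the time comparisons of the 7 genes. From 0 to 3 hr in control 2 of 6 smooth muscle and 2 of 6 alveolar type 1 markers fell. So did 1 of 6 endothelial, 1 of 6 fibroblast and 1 of 8 alveolar type 2 markers. In Cebpa d/d over that time 1 of 8 ciliated markers rose, and 1 of 6 alveolar type 1 and all 8 cardiac muscle markers fell. From 3 to 72 hr in control 6 of 8 ciliated, 5 of 8 alveolar type 2, 4 of 6 fibroblast, 3 of 6 smooth muscle, 3 of 6 alveolar type 1 and 4 of 7 macrophage markers rose, and 3 of 8 club cell markers fell. In the same control comparison 1 of 6 endothelial and 1 of 8 cardiac muscle markers rose and 2 of 5 lymphocyte markers fell. In Cebpa d/d 3 of 8 ciliated and 3 of 6 fibroblast markers rose and 1 of 8 club cell markers fell. There 1 of 6 alveolar type 1, 1 of 7 macrophage and 1 of 8 cardiac muscle markers rose as well. The ciliated marker mean was 9.72, 9.39 and 8.96 in control replicates 1, 2 and 3 at 3 hr, highest in replicate 1 and lowest in replicate 3, as were Ccng1 and Trp53inp1. At 72 hr it was 9.99 to 10.23 in control and 9.85 to 9.94 in Cebpa d/d. From 0 to 72 hr in control the club cell genes Cyp2f2, Cbr2 and Gabrp fell, and 2 of 8 ciliated markers rose. There 4 of 6 endothelial and 2 of 5 lymphocyte markers fell. The alveolar type 1, alveolar type 2, basal and fibroblast lists gave 1 rise each, and 1 alveolar type 1 marker fell. In Cebpa d/d over that time 4 of 8 ciliated markers rose, and 7 of 8 cardiac muscle and 1 of 6 endothelial markers fell. Of 6 alveolar type 1 markers 1 rose and 1 fell there. Over all genes 1.88% rose and 1.62% fell from 0 to 3 hr in control, and 2.66% and 1.72% in Cebpa d/d. From 0 to 72 hr the shares were 4.95% and 2.20% in control, and 3.39% and 1.42% in Cebpa d/d. From 3 to 72 hr they were 11.2% and 8.57% in control, and 4.88% and 3.67% in Cebpa d/d. The part of these markers in the results on the 7 genes was not tested.

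Over the 6 groups Mdm2 ranked from 9.06 ± 0.28 (SD, n = 3) in Cebpa d/d at 0 hr through 9.25 ± 0.11 in Cebpa d/d at 72 hr, 9.35 ± 0.08 in control at 0 hr, 9.53 ± 0.17 in control at 72 hr and 9.55 ± 0.06 in control at 3 hr to 9.77 ± 0.06 in Cebpa d/d at 3 hr. Every neighbouring pair in that order overlaps except the last, where the arrays of control and Cebpa d/d at 3 hr are apart. Btg2 ranked from 9.51 ± 0.09 in control at 72 hr to 10.96 ± 0.25 in Cebpa d/d at 3 hr. Its other groups lay close together, at 9.93 ± 0.08 in control at 0 hr, 9.98 ± 0.25 in Cebpa d/d at 72 hr and 10.26 ± 0.55 in control at 3 hr, with Cebpa d/d at 0 hr between the last pair. Only the lowest of these groups stands apart from its neighbour, and the highest overlaps with control at 3 hr. Ccng1 ran from 10.04 ± 0.25 in control at 3 hr to 10.93 ± 0.07 in Cebpa d/d at 0 hr, with 10.49 ± 0.17 in Cebpa d/d at 3 hr next above the lowest. The means of Bbc3 ran only from 6.90 ± 0.14 in Cebpa d/d at 72 hr to 7.0 ± 0.10 in Cebpa d/d at 0 hr.

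Between the genotypes none of the 7 genes passed at any time. By limma 0 of 7 passed at 0 hr, where 0.336% of all genes did, at 3 hr, where 0.0150% did, and at 72 hr, where 0.0702% did. At an unadjusted p under 0.05 the counts were 3, 2 and 2 of 7, beside 8.53%, 5.02% and 6.31% of all genes. For the interactions 0 of 7 genes passed at 3 hr, beside 0.00% of all genes, and 0 of 7 at 72 hr, beside 0.0953%. At an unadjusted p under 0.05 these were 2 and 0 genes, beside 6.85% and 4.47%.

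Mdm2 was lower in all Cebpa d/d arrays than in all control arrays at 0 hr (-0.29 ± 0.12, adjusted p = 0.498) and at 72 hr (-0.29 ± 0.12, adjusted p = 0.748). At 3 hr it was higher in all of them (0.23 ± 0.12, adjusted p = 0.986). At 0 hr 2 of 7 genes, Mdm2 and Plk2, did not overlap between genotypes, beside 11.4% of all genes. At 3 hr 2 of 7, Mdm2 and Ccng1, did not overlap, beside 9.79%, and at 72 hr 3 of 7, Mdm2, Trp53inp1 and Btg2, beside 15.1%. The largest genotype difference among the 7 genes was that of Btg2 at 3 hr, 0.70 ± 0.20 higher in Cebpa d/d with an adjusted p of 0.711, and control 3 hr replicate 2 overlapped with the Cebpa d/d arrays. Ccng1 at 3 hr was 0.44 ± 0.13 higher in Cebpa d/d with an adjusted p of 0.756. The Cebpa d/d arrays at 0 hr carry the high cardiac muscle markers, whose part in the 0 hr differences was not tested.

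**Figure D3:**
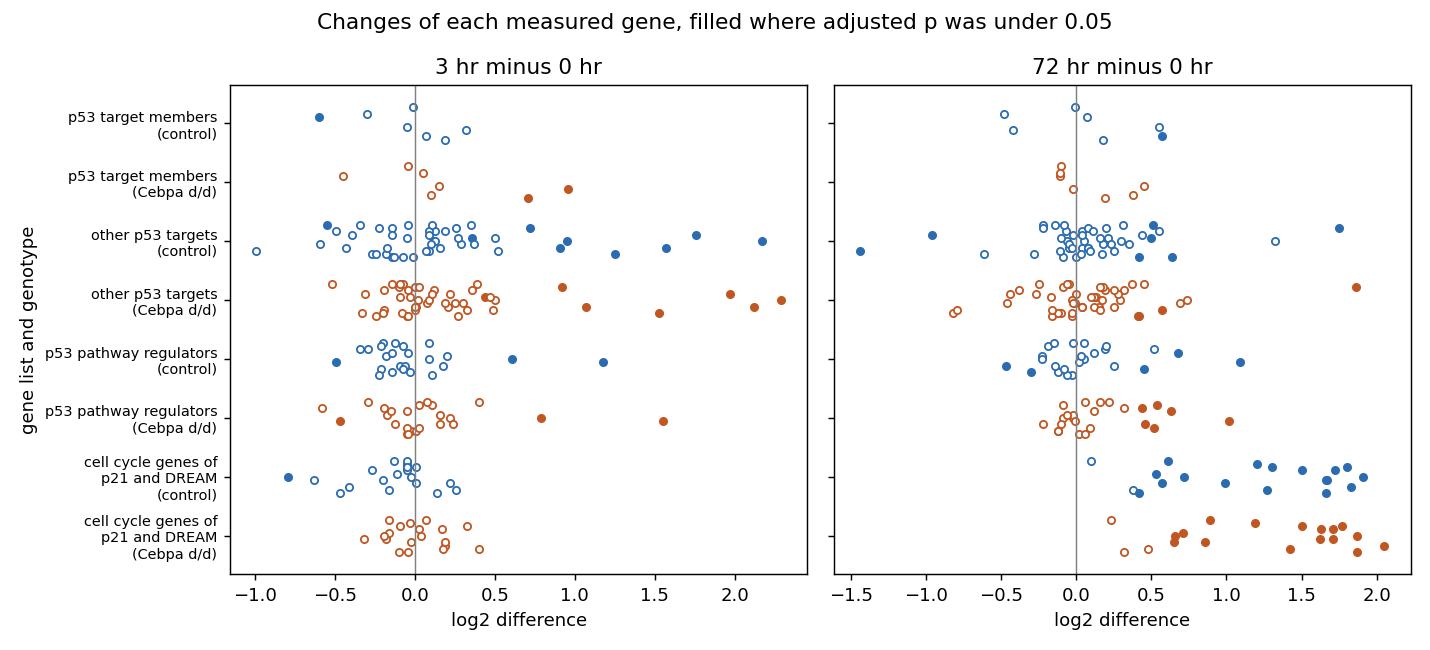
Log2 difference of each measured gene (points, horizontal axis) on 4 lists, by genotype, for 3 hr minus 0 hr and 72 hr minus 0 hr; filled points have an adjusted p under 0.05. At 3 hr a few of the other p53 targets lie far to the right in both genotypes, and at 72 hr most genes of the cell cycle list do.

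Among other genes known as p53 targets, Plk3, Gadd45a, Sesn2, Sfn and Ier5 rose at 3 hr in both genotypes while most did not pass. Of 48 listed, 46 were measured. In control 8 rose and 1 fell at 3 hr, and in Cebpa d/d 7 rose and none fell. The median of the list was 0.09 in control and 0.05 in Cebpa d/d, beside 0.03 and -0.02 over all genes. Over all genes 1.88% rose and 1.62% fell in control, and 2.66% rose and 1.72% fell in Cebpa d/d. Without both arrays treated with caution the control counts were 5 and 0, and those in Cebpa d/d were 7 and 0. Plk3, a stress-responsive kinase related to Plk2, rose by 1.57 ± 0.20 in control (adjusted p = 0.000449) and by 2.12 ± 0.20 in Cebpa d/d (adjusted p = 1.39e-05). Gadd45a, a growth arrest and DNA damage protein, rose by 1.25 ± 0.16 (adjusted p = 0.000303) and by 1.53 ± 0.16 (adjusted p = 2.11e-05). Sesn2, a sestrin that restrains mTORC1, rose by 0.91 ± 0.13 (adjusted p = 0.00130) and by 1.07 ± 0.13 (adjusted p = 0.000125).

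The epithelial 14-3-3 protein gene Sfn rose by 1.76 ± 0.39 in control (adjusted p = 0.0212) and by 1.97 ± 0.39 in Cebpa d/d (adjusted p = 0.00672). Without the array labelled control 0 hr replicate 1, or without control 0 hr replicate 3 or control 3 hr replicate 3, the control call of Sfn was lost. Ier5, an immediate early response gene, rose by 0.72 ± 0.16 in control (adjusted p = 0.0226) and by 0.92 ± 0.16 in Cebpa d/d (adjusted p = 0.00278). Ddit4, Rap2b and Thbs1 also rose in control, Ddit4 and Thbs1 also in Cebpa d/d. The control calls of Ddit4, Rap2b, Thbs1 and Ier5 were lost in 11, 3, 5 and 4 of the 18 fits without 1 array. The gene that fell in control was Sesn1, by 0.55 ± 0.15 (adjusted p = 0.0481), a call that was lost in 16 of 18 fits without 1 array. Several of the risen genes are known targets of other stress regulators too. Sesn2 and Ddit4 are also on a list of 10 targets of ATF4, the factor of the integrated stress response, of which 9 rose in each genotype, with medians of 1.17 and 1.35. Of 15 immediate early genes 11 rose in control and 14 in Cebpa d/d, with medians of 0.83 and 1.11. Beside these counts, 1.88% of all genes rose in control and 2.66% in Cebpa d/d. Atf3 is on both of these lists, and Sesn2 and Ddit4 are counted among the p53 targets as well. The part of ATF4 or of immediate early signals in the rises of p53 targets was not tested.

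At 72 hr Ckap2, Siva1 and Polk had risen in both genotypes. In control 5 rose and 2 fell, and in Cebpa d/d 4 rose and none fell, with medians of 0.06 and 0.07 beside -0.02 over all genes in both. The shares over all genes were 4.95% up and 2.20% down in control and 3.39% up and 1.42% down in Cebpa d/d. Ckap2, a mitotic spindle protein, rose by 1.75 ± 0.27 in control (adjusted p = 0.00114) and by 1.86 ± 0.27 in Cebpa d/d (adjusted p = 0.000543). Siva1, a cell death adaptor, rose by 0.64 ± 0.09 (adjusted p = 0.000545) and by 0.41 ± 0.09 (adjusted p = 0.0114). Polk, a DNA polymerase that copies past lesions, rose by 0.42 ± 0.11 in both (adjusted p = 0.0301 and 0.0369). The call of Polk was lost in 4 and 6 of 18 fits without 1 array. Perp and Abhd4 rose in control and Dcxr rose in Cebpa d/d, where its call was lost in 12 such fits. In control Ephx1, an epoxide hydrolase of the endoplasmic reticulum, fell by 0.96 ± 0.19 (adjusted p = 0.00592), and Igfbp3 fell by 1.44 ± 0.30 (adjusted p = 0.00869). With sex in the model the counts were 3 up and 2 down in control and 2 up and 0 down in Cebpa d/d. Without both arrays treated with caution those in Cebpa d/d were 5 and 3. Most genes of the cell cycle list described below also rose at 72 hr, and the part of cell division in the rises given here, such as that of Ckap2, was not tested.

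Between 3 and 72 hr Gadd45a, Plk3 and Sesn2 fell in both genotypes. Of the 46 targets 8 rose and 8 fell in control, and 2 rose and 8 fell in Cebpa d/d. Over all genes 11.2% rose and 8.57% fell in control, and 4.88% rose and 3.67% fell in Cebpa d/d. The median of the list was -0.10 in control and -0.05 in Cebpa d/d, beside -0.07 and -0.00 over all genes. Gadd45a fell by 1.22 ± 0.16 in control (adjusted p = 0.000102) and by 1.63 ± 0.16 in Cebpa d/d (adjusted p = 8.04e-06). Plk3 fell by 1.49 ± 0.20 (adjusted p = 0.000154) and by 1.97 ± 0.20 (adjusted p = 1.84e-05). Sesn2 fell by 0.83 ± 0.13 (adjusted p = 0.000482) and by 0.95 ± 0.13 (adjusted p = 0.000297). These share the 3 hr arrays with the rises.

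Genes that act on p53 or carry damage signals to it were on a list of 25, of which 24 were measured. At 3 hr Chek1, Sirt1 and Prkdc passed in both genotypes and no other did in either. That is 2 up and 1 down of 24 in each genotype. Of all genes 1.88% rose and 1.62% fell in control, and 2.66% rose and 1.72% fell in Cebpa d/d. Chek1, the checkpoint kinase of stalled replication, rose by 1.18 ± 0.22 in control (adjusted p = 0.00926) and by 1.55 ± 0.22 in Cebpa d/d (adjusted p = 0.000571). Sirt1, a deacetylase with p53 among its substrates, rose by 0.61 ± 0.13 (adjusted p = 0.0173) and by 0.79 ± 0.13 (adjusted p = 0.00171). Prkdc, the catalytic subunit of the DNA-dependent kinase, fell by 0.49 ± 0.12 (adjusted p = 0.0376) and by 0.47 ± 0.12 (adjusted p = 0.0349), calls that were lost in 5 and 6 of 18 fits without 1 array.

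At 72 hr 3 of these regulators rose and 2 fell in control, and 6 rose and none fell in Cebpa d/d. Over all genes 4.95% rose and 2.20% fell in control, and 3.39% rose and 1.42% fell in Cebpa d/d. With sex in the model, as all arrays at 72 hr came from females, the counts were 3 and 0 in control and 4 and 0 in Cebpa d/d. Chek1 rose by 1.09 ± 0.22 in control (adjusted p = 0.00722) and by 1.02 ± 0.22 in Cebpa d/d (adjusted p = 0.0126). Brca1 rose by 0.68 ± 0.12 (adjusted p = 0.00316) and by 0.63 ± 0.12 (adjusted p = 0.00542), and H2ax by 0.45 ± 0.11 (adjusted p = 0.0177) and by 0.52 ± 0.11 (adjusted p = 0.00784). All 3 are known in DNA repair or replication checkpoints. In the same comparisons 17 of the 19 measured genes of the cell cycle list described below rose in control and 16 in Cebpa d/d. The part of cell division in the rises of Chek1, Brca1 and H2ax was not tested. Topbp1, Atr and Rad50 rose as well in Cebpa d/d, by 0.54, 0.46 and 0.44. In control Mdm4, the partner of Mdm2 in holding p53 inactive, fell by 0.47 ± 0.11 (adjusted p = 0.0178). The ubiquitin ligase gene Rchy1, whose product also targets p53, fell there by 0.30 ± 0.08 (adjusted p = 0.0286). Neither call held with sex in the model, and they were lost in 4 and 6 of 18 fits without 1 array. Between 3 and 72 hr 7 of the 24 regulators rose and 3 fell in control, and 7 rose and 2 fell in Cebpa d/d. The shares over all genes there were 11.2% up and 8.57% down in control, and 4.88% up and 3.67% down in Cebpa d/d.

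Cell cycle genes that p53 is known to repress through p21 and the DREAM complex rose at 72 hr in both genotypes. Of 20 listed 19 were measured. At 3 hr none rose, and only Top2a fell in control, by 0.79 ± 0.20 (adjusted p = 0.0385, lost in 6 of 18 fits without 1 array), while none passed in Cebpa d/d. At 72 hr 17 rose and none fell in control, with a median of 1.27. In Cebpa d/d 16 rose and none fell, with a median of 1.42. The median over all genes was -0.02 in both genotypes. Of all genes 4.95% rose and 2.20% fell in control, and 3.39% rose and 1.42% fell in Cebpa d/d. With sex in the model, 15 genes of the list rose in control and 16 in Cebpa d/d, and none fell. Top2a, a topoisomerase of dividing cells, rose by 1.91 ± 0.20 in control (adjusted p = 6.62e-05) and by 1.87 ± 0.20 in Cebpa d/d (adjusted p = 3.90e-05). The mitotic kinase gene Cdk1 rose by 1.83 ± 0.23 (adjusted p = 0.000279) and by 2.05 ± 0.23 (adjusted p = 6.10e-05). Ccna2 and Birc5 rose by 1.66 and 1.5 in control and by 1.71 each in Cebpa d/d. At the same time Trp53inp1 had risen in control, a call that was lost with sex in the model (adjusted p = 0.0813). It did not pass in Cebpa d/d, and no other of the 7 genes passed in either genotype.

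The genes nearest to the members in their course over the 6 group means were found by the root mean square (RMS) difference after centring each gene on its own mean. They are given as a description, without a claim about function. For Mdm2, whose group means span 0.71, they were Baiap2 and Usp37 at an RMS difference of 0.07 and Tmem185b at 0.08. For Ccng1, with a span of 0.89, they were Arxes2 at 0.03 and Rarres2 and Degs2 at 0.07. Trp53inp1 and Phlda3, with spans of 0.60 each, were followed by Stk32a at 0.02 and Atp6v0e and Mmp12 at 0.03, and by Mgp, Rfk and S100a13 at 0.03. Btg2 had a span of 1.45 and no gene nearer than G530011O06Rik at 0.09, then Slc10a1 at 0.11 and Mir122 at 0.12.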

How the data were processed

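Total RNA of 18 samples had been measured on Affymetrix Mouse Gene ST arrays, labelled with biotin. The authors deposited log2 values per probe set. RMA made them, per the submitters' processing notes, and its version and the genome build are not given in the sources used here. Values ran from 2.53 to 13.93, array medians from 6.48 to 6.65, and no scanner files were used, so the number of arrays limits the precision. Of 35557 probe sets 21789 carried 1 gene symbol. The probe set with the highest mean was kept for each of 19938 genes, of which 19919 symbols were in the RefSeq gene table of GRCm38.p6. Arrays were grouped by genotype and time from the labels, and the lowest correlation between replicates was 0.973.

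A linear model of 6 group means was fitted to all 18 arrays with limma 3.58.1 in R 4.3.3, with 12 residual degrees of freedom and 4.49 added by moderation. It gave 11 comparisons, each adjusted by Benjamini-Hochberg over all genes at 0.05. The code was tested on simulated data. All 10 members are named. From the 3 pathway lists, genes are drawn from up to 6 with the smallest adjusted p among those that passed in a comparison; Abhd4, Dcxr, Perp, Polk, Rap2b, Ier5, Ddit4, Thbs1, Sesn1, Rchy1, Rad50 and Atr complete their counts. The members and lists were chosen with earlier results of these data known. Alternatives are in the closing section. Replicate numbers were not used as pairs in this model.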

Additional observations from a re-analysis of the deposited data

Results flagged for a closer look

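The difference of Mdm2 between the genotypes changed direction over time, with no overlap of arrays at any time. Cebpa d/d minus control was -0.29 at 0 hr after naphthalene, 0.23 at 3 hr and again -0.29 at 72 hr, with all 3 Cebpa d/d arrays below, above and below all 3 control arrays. None of the differences passed the test. The change between 0 and 3 hr was tested as an interaction, which was 0.52 with an adjusted p of 0.595 by limma over all genes. The difference between 3 and 72 hr was not tested.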

How the results depend on the processing

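Each result was recomputed under 9 other settings and without each of the 18 arrays, and no called value changed sign. The settings were a filter on genes of low level, averaging a gene's probe sets, a trended robust variance, array weights, a replicate block, only the groups of a comparison, centring on array medians, sex as a covariate, and leaving out both Cebpa d/d 72 hr replicate 1 and the array labelled control 0 hr replicate 1. The rise of Mdm2 at 3 hr in Cebpa d/d, the falls of Mdm2 and Btg2 from 3 to 72 hr in Cebpa d/d and the rise of Ccng1 from 3 to 72 hr in control passed in all 27. With only the groups of a comparison, the members called were 0 at 3 hr in control (1 with all groups), 2 at 72 hr in control (1 with all groups) and 2 from 3 to 72 hr in control (4 with all groups). Array weights gave 3 at 72 hr in control and 1 in Cebpa d/d, where the model without weights gave 1 and 0. They also gave 3 at 3 hr and 3 from 3 to 72 hr in Cebpa d/d, where 2 had been called each time. With sex as a covariate there were 0 at 72 hr in control and 2 from 3 to 72 hr in control. Without both arrays there were 0 at 3 hr in control, 3 at 3 hr in Cebpa d/d, 2 at 72 hr in control, 1 at 72 hr in Cebpa d/d and 4 from 3 to 72 hr in Cebpa d/d, where 2 had been called. Without 1 array the counts ran from 0 to 2 at 3 hr in control, 1 to 3 at 3 hr in Cebpa d/d, 0 to 2 at 72 hr in control, 0 to 1 at 72 hr in Cebpa d/d, 2 to 4 from 3 to 72 hr in control and 2 to 3 in Cebpa d/d. The causes of these moves were not tested. Counts between genotypes and of interactions stayed at 0 under every setting. The replicate block left every member count as it was, with 1 and 2 at 3 hr and 1 and 0 at 72 hr in control and Cebpa d/d, and 4 and 2 from 3 to 72 hr. Over 45 pairs of arrays that share a number, correlations of deviations ran from -0.29 to 0.20, and 7 exceeded 0.1. Of 18 arrays 4 correlated best with their own number. No pairing by number was seen, but with 3 arrays a group these correlations cannot exclude one.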
